A study of Mus musculus with 30 samples.

Results

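Liver RNA-Seq was examined in the inducible hepatocyte Cebpa knockout after 10 weeks of tamoxifen, the experiment named HFCFD12W+T10W. Members were chosen by their sample titles, which gave 10 of the 30 libraries of the series: 5 from Cebpa ΔHep,ERT2 mice (genotype label Cre+) and 5 from Cebpa fl/fl controls (Cre-). Every mouse was a male that carried the floxed Cebpa allele, had been backcrossed to C57BL/6N, ate a diet rich in fat, cholesterol and fructose (HFCFD) for 22 weeks in all and received tamoxifen over the last 10 of them, and the genotypes differed by the Albumin-ERT2-cre transgene. Cre in this line is driven by the albumin promoter and acts once tamoxifen is given. The other cells of the liver keep Cebpa, and the age of the mice is not given in the sources used here. The 10 mice were labelled as separate biological replicates.

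CEBPA is a basic leucine zipper transcription factor that binds DNA as a dimer and is abundant in hepatocytes, fat cells and myeloid cells. In the liver it is known for activating genes of the differentiated hepatocyte, among them albumin, enzymes of glucose output and urea synthesis, and many cytochrome P450 genes, and for holding back proliferation. A liver that loses it is therefore examined here for hepatocyte products, for genes of other epithelia and of dividing cells, and for the resident and recruited cells around the hepatocytes.

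Cebpa (ENSMUSG00000034957.10, chromosome 7, 35119293 to 35121928, plus strand, mm10) was measured at 141, 147, 93.4, 153 and 111 CPM (counts scaled to a common library size, with TMM factors) in the 5 fl/fl mice and at 24.2, 27.7, 26.4, 21.7 and 23.8 CPM in the 5 knockout mice. The groups did not overlap, and the mean level of the knockout was 19.2% of that of the controls (log2 fold change -2.38 ± 0.14 SE, edgeR quasi-likelihood test, adjusted p = 9.44e-08). Spp1, which encodes osteopontin, stood at 52 ± 7.11 CPM (SD, n = 5) in fl/fl and 932 ± 159 CPM in knockout livers. In whole liver, fewer cells of a type and less RNA per cell cannot be told apart, which holds for every level below.

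The knockout libraries held 8047025 to 9058390 counts and 17003 to 17342 genes with a count, against 8572623 to 9695171 counts and 15693 to 16066 genes in fl/fl. On the first principal component, which held 75.8% of the variance of the 2000 most variable genes, all 5 knockout mice lay on 1 side and all 5 fl/fl mice on the other. The second component (5.97%) set fl/fl mice 1 and 5 at opposite ends. Fl/fl mouse 5 stood apart in named genes. The acute-phase gene Saa1 was at 167, 412, 242, 463 and 3998 CPM in the 5 fl/fl mice, so that the fifth lay far above the rest. In contrast, Slco1a1, an organic anion transporter that is high in male liver, was at 331, 176, 67.1, 685 and 1.94 CPM, with the same mouse lowest. Its counts of the Y-linked gene Ddx3y were within the 550 to 660 counts of all 10 libraries, and Xist had 0 counts in each. Where leaving out this or another mouse changed the call of a printed gene, or a printed fold change past the test by more than 1.5 times, the value without that mouse is given beside it.

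Of 12463 genes tested, 1777 were higher in knockout livers (14.3%) and 433 were lower (3.47%), by a fold over 2 with an adjusted p below 0.05. With no fold minimum the test passed 3411 higher (27.4%) and 2960 lower genes (23.8%). These are the background against which the groups below are read. The knockout mice lay above all fl/fl mice for 2608 genes (20.9%) and below all of them for 2099 genes (16.8%). Changes of over 16-fold were fitted for 88 higher and 27 lower genes. Without fl/fl mouse 5 the calls were 1984 higher and 444 lower. Higher genes made up 80.4% of the calls with trimmed-mean (TMM) scaling and 92.1% (2578 higher, 220 lower) when libraries were scaled by their totals alone, because that scaling raised the median log2 fold change of all genes from 0.01 to 0.38. All values below use TMM and so are relative to the bulk of the genes, and a size of change given without a unit is a log2 fold change. By total counts Apoe, Atp5a1, Cebpb, Cpt1a, F10, Fabp1, Pck1, Pklr, Stab2 and Tef, called lower below, lost their call, and Ccn1, Cxcl1, Hmox1, Jun, Pecam1, Plin2, Scd1, Slc34a2, Trf, Ttr and Txnrd1, not called below, passed as higher. The median SD of log2 CPM over genes was 0.212 among fl/fl mice and 0.165 among knockout mice.

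**Figure D1:**
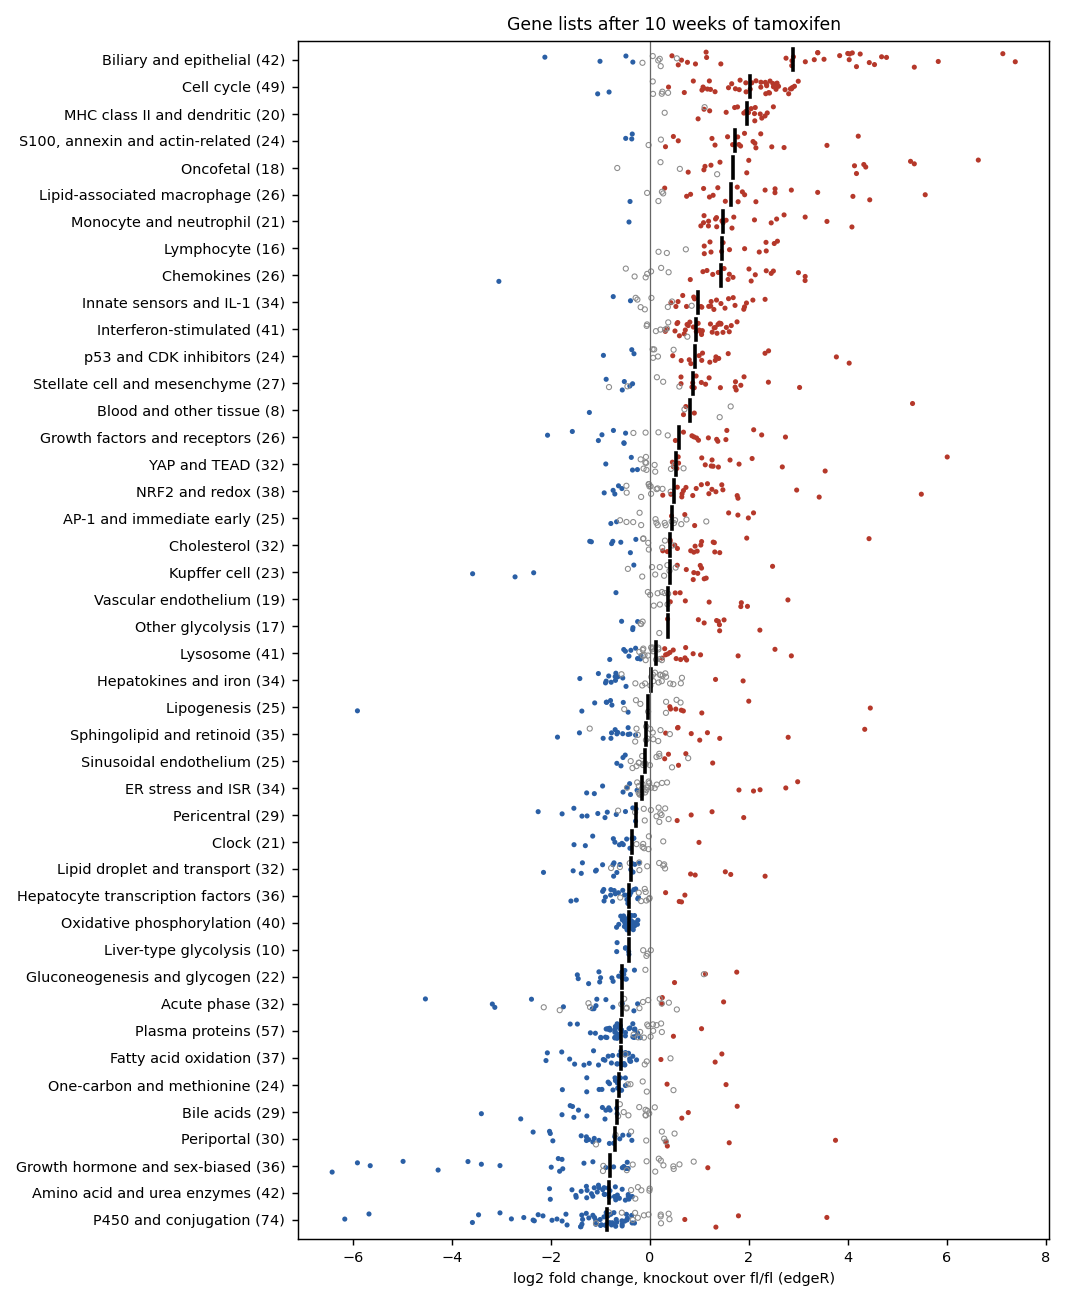
Log2 fold change (knockout over fl/fl, x axis) of every tested gene in 44 lists, ordered by list median; the number of tested genes stands in brackets. Red and blue points passed an adjusted p under 0.05, open grey points did not, and black bars are medians, which run from -0.86 for P450 and conjugation genes to 2.88 for biliary and epithelial genes; values of genes at the counting floor in 1 genotype are fitted values, not bounds. By total counts the pericentral, clock and sphingolipid and retinoid medians change sign.

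Major urinary proteins made up most of the largest falls. Among genes above 10 CPM without overlap between the groups, the 10 lower ones with the largest fold included 7 major urinary proteins (Mup1, Mup3, Mup7, Mup11, Mup12, Mup16 and Mup22). Male hepatocytes secrete these proteins, which carry pheromones into the urine. The others were Cyp2c69, Elovl3 and Sult2a8. Mup3 fell from 4013, 3468, 2835, 8579 and 1466 CPM in the fl/fl mice to 18, 34.6, 105, 55.6 and 24.6 CPM in the knockout mice. Mup genes are near-identical copies whose reads RSEM divides between them, so the single members are uncertain. Sult2a8, a bile acid sulfotransferase, was at 909.5, 657, 627, 1027 and 360.0 CPM in fl/fl and at 6.3, 13.7, 32.8, 10.7 and 6.65 CPM in knockout mice, a log2 fold change of -5.67 ± 0.48 SE (adjusted p = 1.57e-06; -6.27 without knockout mouse 3). Elovl3, which lengthens saturated fatty acids, fell from 16.7 ± 10.6 to 0.267 ± 0.229 CPM (-5.91). Cyp2c69, a P450 of the 2c family, had at most 3 counts in every knockout library and was at least 50.6-fold lower.

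Promoters are shown for genes named here that passed the test with a fold over 2 and whose 250 bases before the RefSeq start hold the letters TTGCNNAA, a C/EBP-type motif, on either strand. Of the named genes searched, 19 called genes had such a match, 10 lower and 9 higher. Of these 19, the 3 lower and the 1 higher of smallest p are printed, with the motif in capitals. The genes searched were a part of those named by rule, so the counts and the choice hold for that part only. Where the motif lies on the other strand, as in Slc10a1, its reverse complement stands in capitals. The sequences are from RefSeq, build GRCm38.p6, read 5′ to 3′ on the strand of the gene. They lie at chr12:80968121-80968180 (minus strand) for Slc10a1, at chr7:14446771-14446830 (minus) for Sult2a8, at chr19:39886771-39886830 (minus) for Cyp2c69 and at chr10:115817034-115817093 (plus) for Tspan8.
Slc10a1: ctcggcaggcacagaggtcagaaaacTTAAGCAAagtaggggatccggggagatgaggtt
Sult2a8: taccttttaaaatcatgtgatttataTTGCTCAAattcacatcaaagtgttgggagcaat
Cyp2c69: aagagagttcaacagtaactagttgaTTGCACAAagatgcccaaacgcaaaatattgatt
Tspan8: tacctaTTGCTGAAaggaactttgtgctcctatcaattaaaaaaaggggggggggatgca
The motif starts 75 bases before the RefSeq start in Slc10a1, 217 in Sult2a8, 35 in Cyp2c69 and 244 in Tspan8. In the GENCODE M21 annotation Tspan8 starts at 115816832, so its printed window lies inside the gene as annotated there. Cyp2c69 starts at 39886799 in that annotation, within its printed window.

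The C/EBP-type letters were in 14.4% of 425 promoters of lower genes, in 7.91% of 1733 promoters of higher genes, in 7.99% of 12371 promoters of all tested genes and in 9.56% of all 32851 promoters. CAAAGTCCA, an HNF4A-type motif, was in 7 of the 425 promoters of lower genes (1.65%) and 7 of the 1733 of higher genes (0.404%). Its share was 0.437% of promoters of all tested genes and 0.384% of all promoters. TGANTCA, the AP-1-type motif, was in 7.1% of promoters of higher genes, 6.35% of lower genes, 4.67% of all tested genes and 6.75% of all promoters. GGAATG, the TEAD-type motif, was in 13.4% of promoters of higher genes, 13.4% of lower genes, 10.8% of all tested genes and 12.6% of all promoters. Each motif was searched on both strands and counted on its own, so matches of different motifs can overlap. The shares are a description without a test. Promoters were matched by symbol for 1326 of the 1777 higher and 318 of the 433 lower genes, and a gene can have several.

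The largest rises among genes above 10 CPM were in H19, Spink1, Gipc2, Gpnmb, Tspan8, Nptx1, Pls1, Lrtm2, Ehf and Scara3. H19, a long non-coding RNA of the fetal liver, had at most 3 counts in every fl/fl library and 20.4, 20.2, 7.21, 27.5 and 19.5 CPM in the knockout mice, at least 49.8-fold higher. Spink1, a secreted trypsin inhibitor, was at 0, 0.127, 0, 0.13 and 1.03 CPM in fl/fl and 26, 39.5, 25.4, 19.1 and 20.5 CPM in knockout mice (log2 fold change 6.48, and 8.35 without fl/fl mouse 5). Gpnmb, a membrane glycoprotein of lipid-laden macrophages, rose from 1.2 ± 0.685 to 56.9 ± 15.6 CPM (log2 fold change 5.56). Tspan8, an epithelial tetraspanin, rose by 5.34 (log2) and Ehf, an epithelial ETS factor, by 4.68. Gipc2, a PDZ scaffold protein, rose by 5.95, Pls1, an actin bundler of epithelial microvilli, by 5.23 (6.23 without fl/fl mouse 1), Nptx1, a neuronal pentraxin, by 5.33, Lrtm2 by 4.96 and the scavenger receptor-like Scara3 by 4.63. No knockout mouse overlapped with a fl/fl mouse in any of these 10, which the rule for naming them required.

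**Figure D2:**
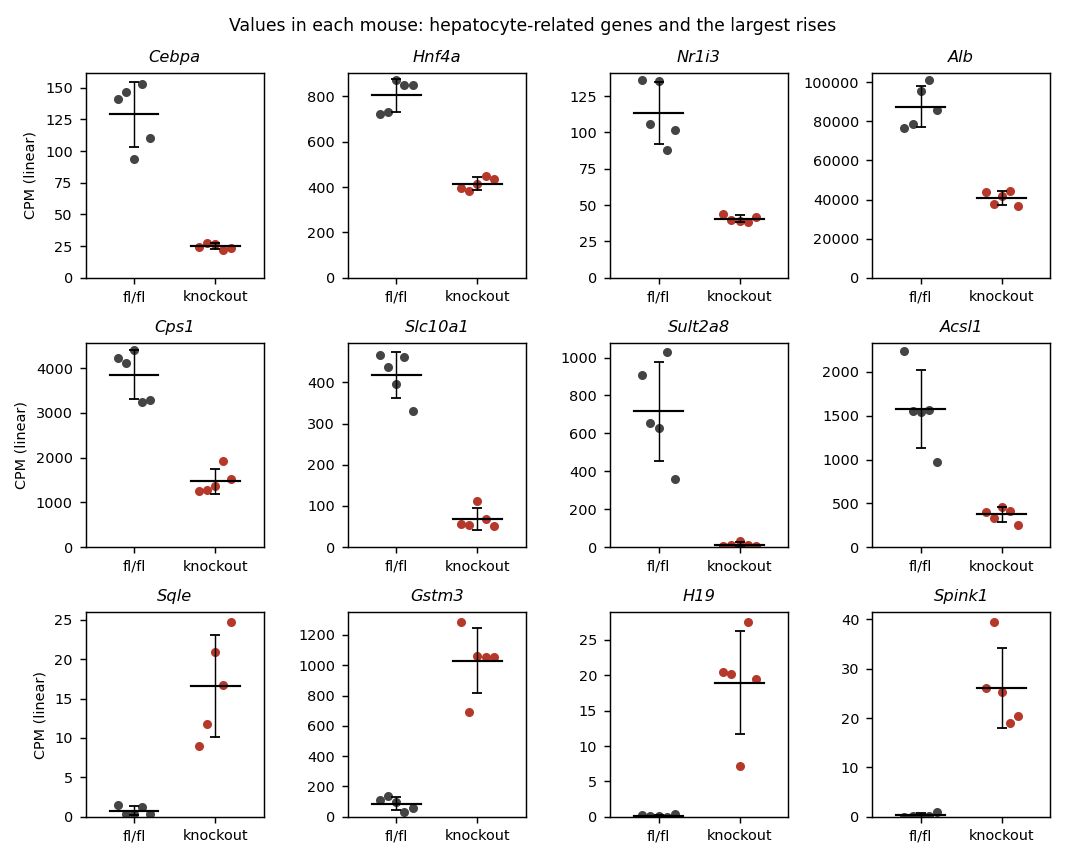
CPM (linear axis) of 12 genes in each of the 5 fl/fl (grey) and 5 knockout (red) mice, with mean and SD as bars. Cebpa, Hnf4a, Nr1i3, Alb, Cps1, Slc10a1, Sult2a8 and Acsl1 were lower and Sqle, Gstm3, H19 and Spink1 higher in the knockout, with no overlap between the groups.

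Most hepatocyte transcription factors fell, few of them by over 2-fold. Of 36 measured, 24 fell and 4 rose, the median log2 fold change being -0.42, and 2 fell by over 2-fold; by total counts 12 fell and 5 rose. Hnf4a, the nuclear receptor that with CEBPA maintains hepatocyte identity, was at 725, 730.2, 874, 850.0 and 849.7 CPM in fl/fl and 396, 382, 414, 449 and 437 CPM in knockout mice (-0.96, adjusted p = 2.21e-06). Nr1i3, the xenobiotic receptor CAR, fell furthest of those named, from 114 ± 21.4 to 40.5 ± 2.33 CPM (-1.49). Ppara, which drives fatty acid oxidation genes, fell by 0.93 (log2), the bile acid receptor Nr1h4 (FXR) by 0.79, its target Nr0b2 (SHP) by 0.90, the xenobiotic receptor Nr1i2 (PXR) by 0.72 and Prox1 by 0.79. Cebpb, the closest relative in liver, fell from 49.6 ± 9.91 to 36.6 ± 1.08 CPM (-0.44, but -0.06 and past no threshold by total counts).

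Plasma proteins are the secreted output of hepatocytes. Of 57 measured, 43 fell, 2 rose and 12 did not pass, with a median of -0.58 (-0.21 by total counts). Alb, albumin, was at 76846, 78474, 95314, 101368 and 85951 CPM in fl/fl and 43664, 37932, 41813, 44206 and 36456 CPM in knockout mice (-1.1 ± 0.12 SE). The clotting factors F11 and F7 fell by 1.47 (log2) and 0.99, the complement factor C6 fell by 1.61, and Apoh, a phospholipid-binding apolipoprotein, by 0.90. In contrast, transthyretin (Ttr, 5192 ± 243 and 5696 ± 742 CPM) and transferrin (Trf, 20286 ± 1796 and 23974 ± 1671 CPM) did not pass the test. The summed level of the list ranged from 206884 to 259972 CPM in fl/fl and from 149374 to 167077 CPM in knockout mice. The 2 genes that rose were the C1q chain C1qa, a macrophage product in this list (1.04), and Mbl2, by under 2-fold.

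Amino acid breakdown and urea synthesis were among the most uniform groups. Of 42 genes, 36 fell, 0 rose and 6 did not pass, with a median of -0.83 (31 fell and 2 rose by total counts). Cps1, which commits ammonia to the urea cycle, was at 4214, 4106, 4404, 3245 and 3276 CPM in fl/fl and 1246, 1285, 1356, 1934 and 1531 CPM in knockout mice (-1.39 ± 0.14 SE). Asl and Arg1, later steps of the cycle, fell by 1.28 (log2) and 1.03, and Otc by 0.69, whereas Ass1 (3591 ± 603 and 2758 ± 558 CPM) did not pass, except without knockout mouse 1 or 4 or fl/fl mouse 4 or 5 (-0.47 to -0.43). Hal, which opens histidine breakdown, fell by 2.01, Hpd, of tyrosine breakdown, by 1.57, Tdo2, of tryptophan, fell by 1.5, and Sds, of serine, by 1.15. In methionine and one-carbon metabolism 17 of 24 genes fell and 2 rose. Mat1a, the adult form of methionine adenosyltransferase, fell from 4568 ± 663 to 1888 ± 194 CPM (-1.28), and Mat2a, the form of dividing and non-hepatic cells, rose from 61.2 ± 5.28 to 77.7 ± 7.02 CPM (0.35). Ahcy fell by 1.28 and Cbs, which opens transsulfuration, by 1.03. Mthfd2, a mitochondrial folate enzyme of proliferating cells, rose from 1.31 ± 0.931 to 3.84 ± 1.06 CPM.

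Detoxification genes made the list with the lowest median. Of 74 P450 and conjugation genes, 57 fell, 28 of them over 2-fold, 4 rose and 13 did not pass (median -0.86, -0.49 by total counts). Cyp2b10, the usual target gene of CAR, was at 57.4, 59.6, 252, 77.5 and 217 CPM in fl/fl and 2.95, 16.1, 3.55, 16.2 and 16.6 CPM in knockout mice (-3.58). Cyp2c29 fell by 2.33 (log2), Cyp2c37 fell by 2.26, Cyp2b9 fell by 3.03 and Cyp3a25 by 1.88. Cyp2e1, the ethanol-oxidising P450, fell from 13159.5 ± 1785 to 5083 ± 974 CPM, and Por, the reductase that supplies P450s with electrons, from 1331 ± 207 to 666 ± 45.5 CPM. Cyp3a11 (3063 ± 1300.1 and 2067 ± 322 CPM, adjusted p = 0.0657) did not pass here, but passed as lower without fl/fl mouse 1 (-0.73) or fl/fl mouse 4 (-0.71). The 4 members that rose were the glutathione transferases Gstm1 and Gstm3 and the glucuronosyltransferases Ugt1a5 and Ugt1a9. Gstm3 was at 112, 137, 94.7, 34.5 and 54.6 CPM in fl/fl and 1287, 692, 1059, 1057 and 1056 CPM in knockout mice (3.57 ± 0.33 SE), Gstm1 rose by 1.33 and Ugt1a9 by 1.79. Per transcript length, Gstm3 made 5.54% ± 2.21 of the TPM (a length-scaled level) of Gstm1 and Gstm3 in fl/fl and 22.3% ± 2.35 in knockout mice (SD, n = 5, no test). Gstm genes are close paralogs and Ugt1a9 shares its last exons with other Ugt1a genes, so reads may be divided wrongly among them.

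Of 29 genes of bile acid synthesis and transport, 15 fell, 3 rose and 11 did not pass. Slc10a1, the sodium-dependent uptake carrier NTCP whose promoter is printed above, was at 465, 437, 397, 462 and 332 CPM in fl/fl and 57.2, 53.7, 113, 68 and 51.1 CPM in knockout mice (-2.61 ± 0.21 SE, adjusted p = 9.93e-07). Slco1b2, an uptake carrier, fell by 1.54 (log2) and Slco2b1 by 1.27. Abcc3, a basolateral export pump, fell by 1.44, whereas Abcc4, another basolateral exporter, rose from 20.6 ± 8.74 to 70.1 ± 19.6 CPM (1.76). The synthesis enzymes Cyp8b1, which makes cholic acid, Cyp7b1 and Cyp27a1 fell by 1.61, 1.78 and 0.91. Cyp7a1, the rate-limiting enzyme, was at 160.1 ± 76 CPM in fl/fl and 103 ± 29.4 CPM in knockout mice and did not pass (adjusted p = 0.103), but passed as lower without fl/fl mouse 4 (-0.84, adjusted p = 0.0181) and with all 30 libraries in 1 fit (adjusted p = 0.0432). Slc10a2, the carrier of cholangiocytes and ileum, rose (0.77).

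Glucose output and glycogen genes fell in 17 of 22 cases, with 3 higher (9 lower and 4 higher by total counts). G6pc, which releases free glucose, fell from 508 ± 64.7 to 215 ± 56.3 CPM and Pck1, of gluconeogenesis, from 4225 ± 679 to 2889.5 ± 391 CPM. Gys2, liver glycogen synthase, fell by 1.0 (log2) and Ppp1r3b, which targets phosphatase to glycogen, by 1.47. Pck2, the mitochondrial form of the Pck1 enzyme, rose from 1.72 ± 0.352 to 5.83 ± 0.657 CPM. The liver forms of glycolytic enzymes fell in 6 of 10 cases (1 by total counts), among them Khk (-0.67) and Pklr (-0.66, lost without fl/fl mouse 1 or 2 or knockout mouse 3, 4 or 5, at -0.64 to -0.50). The forms of other tissues rose in 9 of 17 cases and fell in 4 (2 without knockout mouse 2). Pkm was at 21.1, 22.7, 27.8, 22.5 and 35.9 CPM in fl/fl and 58.4, 97.6, 67.5, 71.8 and 72.6 CPM in knockout mice, Hk1 rose by 1.4, Hk2 by 1.38 and Pfkp by 1.35. In TPM, Pkm made 13.7% ± 7.12 of Pkm and Pklr together in fl/fl and 38.1% ± 5.61 in knockout livers. Leukocyte genes rose in the same livers (given further on), and their part in these shares was not tested.

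**Figure D3:**
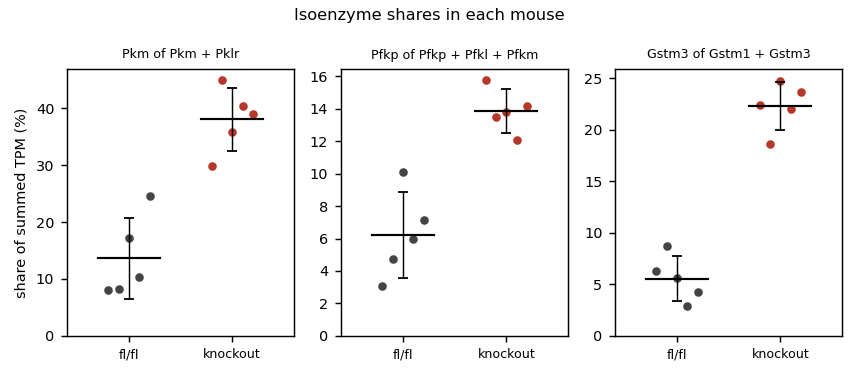
Share of summed TPM (%, linear axes from 0) taken by the non-hepatic or the rising form of 3 enzyme families in each of the 5 fl/fl (grey) and 5 knockout (red) mice, with mean and SD as bars. Mean shares of Pkm moved from 13.7% ± 7.12 to 38.1% ± 5.61 and those of Gstm3 from 5.54% ± 2.21 to 22.3% ± 2.35.

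Fat oxidation fell while the lipid synthesis list did not move one way. Of 37 oxidation genes, 30 fell and 3 rose (18 and 4 by total counts). Acsl1, which activates long-chain fatty acids, was at 2234, 1552, 1538, 1567 and 977 CPM in fl/fl and 405, 336, 462, 418 and 250.3 CPM in knockout mice (-2.07 ± 0.21 SE). Cyp4a14 and Cyp4a10, PPARA targets of omega-oxidation, fell by 1.52 (log2) and 1.33, and Cpt1a, of mitochondrial entry, by 0.43. Ucp2, an uncoupling protein prominent in leukocytes, rose (1.45). All 40 of 40 tested subunits of the respiratory chain and ATP synthase fell with TMM scaling, with a median of -0.43 and none over 2-fold, but only 3 fell by total counts, where the median was -0.05. Sdhb fell from 174 ± 7.75 to 112 ± 7.04 CPM and Atp5a1 from 1137 ± 70.3 to 795 ± 55.1 CPM.

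Of 25 lipogenesis genes 8 rose and 9 fell. Mlxipl, the sugar-sensing factor ChREBP, fell from 46.8 ± 9.04 to 18 ± 2.56 CPM (-1.37) and Dgat2, the last step of triglyceride synthesis, by 0.88. Fasn was 0.40 higher and Scd1, the abundant desaturase, was at 7849 ± 3049 and 12049 ± 3417 CPM and did not pass, though it did without fl/fl mouse 2 (0.82) or knockout mouse 2 (0.74). Scd2, the desaturase of fetal liver, rose from 11.2 ± 3.18 to 44.9 ± 4.98 CPM (2.0), and Elovl7 from 0.256 ± 0.183 to 5.83 ± 0.837 CPM. In lipid storage and transport 17 of 32 genes fell and 5 rose (9 and 10 by total counts). Slc27a5 and Slc27a2, acyl-CoA synthetases of the fatty acid transport family, fell by 1.39 (log2) and 1.1, Fabp1, the main fatty acid binding protein, by 0.73 and Mttp, needed to load VLDL, by 0.61. Lpl, lipoprotein lipase, which is low in adult hepatocytes and present in macrophages, was at 38.3, 40.1, 42.4, 27.4 and 39.1 CPM in fl/fl and 188, 220.2, 179, 171 and 182 CPM in knockout mice (2.33). The droplet coat gene Plin2 (391 ± 83.2 and 471 ± 60.3 CPM) did not pass, except without fl/fl mouse 1 (0.35), when 8 genes of this list rose.

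Of 32 genes of cholesterol synthesis and export 18 rose and 7 fell (21 and 4 by total counts). Sqle, squalene epoxidase, was at 1.47, 0.382, 0.39, 1.3 and 0.343 CPM in fl/fl and 8.95, 11.8, 20.9, 16.7 and 24.7 CPM in knockout mice (4.42 ± 0.40 SE, adjusted p = 2.85e-06). Abcg5, which with Abcg8 exports sterols into bile, fell from 157 ± 37.7 to 69 ± 21.1 CPM (-1.18), and Lcat, which esterifies cholesterol in HDL, fell by 0.75. Soat1, the sterol esterifying enzyme of macrophages, rose (1.28), as did Abcg1 (1.03).

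Genes of bile duct and other epithelia formed the list with the highest median. Of 47 listed genes 42 were tested and 5 were too low, and 32 rose, 4 fell and 6 did not pass, with a median of 2.88 (2.72 with 5 genes at their bounds). Epcam, an adhesion protein of cholangiocytes and progenitor cells, was at 0.934, 0.892, 0.911, 0.52 and 1.37 CPM in fl/fl and 16.9, 15.1, 23.2, 18 and 28.9 CPM in knockout mice. Cd24a rose from 1.98 ± 0.312 to 33.8 ± 8.19 CPM and Prom1 from 0.83 ± 0.137 to 15.3 ± 1.65 CPM, both surface proteins of progenitor-type cells. The cytokeratins Krt7 and Krt19 rose by 2.9 (log2) and 2.75, Bicc1, an RNA-binding protein, by 3.14, Ddr1 by 3.32 and the epithelial factor Elf3 by 3.99 (5.00 without fl/fl mouse 5). Cftr, the chloride channel of duct cells, had at most 3 counts in every fl/fl library and was at least 14.4-fold higher. Tff3, a mucosal peptide, rose from 10.5 ± 14.9 to 76.2 ± 24.5 CPM (2.87, and 4.28 without fl/fl mouse 4), whereas Wfdc2 fell (-2.12). Cdh1, E-cadherin, rose from 4.46 ± 1.25 to 60.1 ± 6.86 CPM. Of 18 tested oncofetal genes 14 rose and 0 fell. Igf2, the fetal growth factor beside H19, rose from 0.515 ± 0.217 to 10.4 ± 3.14 CPM and Dlk1, a hepatoblast surface protein, from 0.0749 ± 0.115 to 3.44 ± 1.17 CPM. Dlk1 had at most 3 counts in every fl/fl library, so its log2 fold change (5.26, and 6.24 without fl/fl mouse 3) is a fitted value, not a bound. Afp, the classical fetal plasma protein, was at 2.75 ± 1.13 and 1.73 ± 0.596 CPM and did not pass, but passed as lower without fl/fl mouse 5 (-0.82, adjusted p = 0.0407). The 4 lower biliary genes were 2 without knockout mouse 1.

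Calcium-binding S100 and annexin genes rose in 19 of 24 cases, with 3 lower. Anxa2 was at 27.1, 26.8, 20.9, 13.7 and 27.5 CPM in fl/fl and 86.3, 126, 113, 104 and 119 CPM in knockout mice, S100a11 rose by 2.46 (log2), S100a6 by 2.08 and Anxa5 by 1.57. Tmsb10, an actin-binding peptide, rose by 2.12. S100a1 and Anxa11 fell by 0.37 and 0.36, but turned to 0.01 and 0.01 by total counts. Of 32 YAP and TEAD pathway genes 17 rose and 4 fell. The target gene Ccn2 rose from 15.3 ± 5.87 to 40 ± 5.0 CPM, Myof by 2.67 and Ptpn14 by 2.06, whereas the target Amotl2 fell by 0.89 and Yap1 itself by 0.25, though Yap1 turned to 0.12 by total counts. Ccn1 (6.97 ± 2.98 and 9.4 ± 1.57 CPM) did not pass. Among growth factors and receptors 14 of 26 rose and 8 fell. Lifr, the LIF receptor, was at 617, 622, 598, 715 and 550.0 CPM in fl/fl and 139.9, 139, 207, 138 and 116 CPM in knockout mice. Egfr fell from 431 ± 238 to 146 ± 72.5 CPM and the HGF receptor Met from 128 ± 16.1 to 65.2 ± 12.4 CPM, while Erbb2 rose from 0.875 ± 0.315 to 3.82 ± 0.958 CPM and Fgfr3 from 12.4 ± 2.66 to 35.8 ± 7.19 CPM. The PDGF ligands Pdgfb and Pdgfd rose by 2.26 and 2.74.

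Cell-cycle genes rose in 42 of 49 tested cases, 39 of them over 2-fold, with 2 lower (median 2.03). Ccnd1, cyclin D1, was at 26, 46.8, 34.1, 44.5 and 55.8 CPM in fl/fl and 216, 202, 194, 235 and 217 CPM in knockout mice (2.36 ± 0.17 SE). Mki67, the proliferation marker Ki-67, was at 1.07, 2.8, 1.69, 2.21 and 8.12 CPM and 14.7, 18.8, 11.4, 19.8 and 19.1 CPM (2.36), Top2a rose by 2.55 (log2), Cdk1 by 2.8, Ccnb1 by 3.0 and the replication helicase subunit Mcm2 by 2.24. Fl/fl mouse 5 was the highest of its group in Mki67, and without it the log2 fold change was 3.08 for Mki67, 3.22 for Top2a and 4.15 for Ccnb1. E2f8 and Tk1 were the 2 genes that fell (-1.06 and -0.83). Targets of p53 and inhibitors of cyclin-dependent kinases rose in 16 of 24 cases. Phlda3 rose by 2.4, Ddit4l by 4.02, Ccng1 from 43.6 ± 6.4 to 101 ± 16.4 CPM and Mdm2 by 0.63. Cdkn1a, p21, was at 13.5, 11.7, 42.8, 10.9 and 74.2 CPM in fl/fl and 59.1, 64.6, 28.7, 112 and 139 CPM in knockout mice, and its call (adjusted p = 0.0488) was lost in 8 of the 10 fits that left out a mouse and with DESeq2, while without fl/fl mouse 5 its log2 fold change went from 1.39 to 2.02. The 8 were those without fl/fl mouse 1, 2, 3 or 4 or knockout mouse 1, 2, 4 or 5, at 1.10 to 1.51. Gdf15, a stress-induced hormone, fell (-0.94). Leukocyte and stellate cell genes rose in the same mice, and their share of the cell-cycle RNA was not tested.

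Stress pathways did not move together. Of 34 genes of the unfolded protein and integrated stress responses 5 rose, 8 fell and 21 did not pass. Herpud1, of ER-associated degradation, fell from 884 ± 165 to 406 ± 45 CPM, while the chaperone gene Hspa5 (999.9 ± 175 and 901 ± 194 CPM) did not pass. Atf3 rose by 2.09 (log2; 2.80 without fl/fl mouse 5) and Psat1, of serine synthesis, by 2.22. In the NRF2 and redox list 21 of 38 rose and 5 fell. Cbr3 rose from 0.849 ± 0.296 to 9.32 ± 2.72 CPM, Nqo1 by 0.86, Gpx3 by 1.78 and Pgd, of the pentose phosphate pathway, by 1.04. Txnrd1 (127 ± 7.29 and 142 ± 15.4 CPM) and Hmox1 (44 ± 13.9 and 59 ± 11.1 CPM) did not pass, Hmox1 passing without fl/fl mouse 5 (0.54, adjusted p = 0.0443), and the antioxidant enzymes Cat, Prdx6 and Sod2 fell by 0.74, 0.92 and 0.71. Of 25 AP-1 and immediate early genes 16 did not pass, Fos (5.24 ± 5.35 and 8.73 ± 7.9 CPM) and Jun (28.1 ± 18.6 and 39.5 ± 8.06 CPM) among them, whereas Myc rose from 2.68 ± 1.07 to 8.01 ± 1.57 CPM and Klf6 from 15.2 ± 5.59 to 52.1 ± 9.96 CPM. Without fl/fl mouse 5 Jun passed as higher (0.93, adjusted p = 0.00806) and the genes of this list that rose went from 7 to 12. Fos passed as higher without fl/fl mouse 3 (1.53, adjusted p = 0.048), and 4 genes in place of 2 fell without knockout mouse 3.

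Acute-phase genes fell in 14 of 32 cases and rose in 3, and 1 rose without fl/fl mouse 1, 2 or 3 or knockout mouse 1, 2 or 5. Orm1 was at 462, 639.8, 415, 1076 and 1207 CPM in fl/fl and 47, 133, 141, 56.8 and 55.9 CPM in knockout mice (-3.13 ± 0.40 SE), Serpina3k fell by 1.75 (log2), Crp by 1.07 and Il6ra, the IL-6 receptor, by 1.09. Saa1 (-1.82, adjusted p = 0.0563) rested on fl/fl mouse 5: in the knockout it was at 349.8, 345, 249, 202 and 348 CPM, inside the range of the other 4 fl/fl mice, and without that mouse its log2 fold change was -0.12 (adjusted p = 0.753). It passed as lower when any 1 of the other 4 fl/fl mice was left out (-2.13 to -2.04). Saa2 turned likewise, from -2.14 to 0.28, and passed as lower without fl/fl mouse 1 (-2.47) or 3 (-2.48). Without mouse 5 the list held 12 lower and 3 higher genes. Lcn2, lipocalin-2, was at 39.5, 30.2, 35.1, 67.3 and 239 CPM in fl/fl and 96.5, 176, 99.8, 77.1 and 153 CPM in knockout mice and did not pass with all mice (0.54), while without mouse 5 it was 1.47 (adjusted p = 0.000985). Haptoglobin, Hp (7321 ± 2679 and 7148 ± 852 CPM), did not pass.

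Genes of resident Kupffer cells did not move together. Cd163, a scavenger receptor for hemoglobin, was at 12, 19.9, 26.8, 45.8 and 38.2 CPM in fl/fl and 2.24, 0.86, 0.987, 5.72 and 2.15 CPM in knockout mice (-3.58 ± 0.46 SE, adjusted p = 3.72e-05; -4.17 without knockout mouse 4). Timd4, which marks long-lived resident Kupffer cells, was at 3.6, 13.6, 13.3, 18.1 and 21.2 CPM in fl/fl and 5.18, 0.968, 1.28, 1.8 and 1.31 CPM in knockout mice (-2.72 ± 0.48 SE; -3.37 without knockout mouse 1), and Marco at 19.6, 60.3, 95.8, 155 and 175 and 45, 11.2, 14.6, 16.6 and 12 CPM. The groups overlapped for Timd4 and Marco, through fl/fl mouse 1 and knockout mouse 1. Clec4f, a lectin restricted to Kupffer cells, was at 73.9, 141, 128, 184 and 169 CPM in fl/fl and 144, 129, 107, 199 and 171 CPM in knockout mice and did not pass (log2 fold change 0.11, adjusted p = 0.716, -0.07 without fl/fl mouse 1 and -0.02 without knockout mouse 4), and Vsig4, a complement receptor, rose by 0.55 (log2), a call lost without fl/fl mouse 3 (0.50) or knockout mouse 4 (0.49). Of 23 tested Kupffer cell genes 10 rose and 4 fell, and the summed level of the list ranged from 785 to 1710.5 CPM in fl/fl and from 1489 to 1891 CPM in knockout mice. Cxcl13, a B-cell attracting chemokine, was at 1.87, 2.93, 16.9, 37.2 and 19.9 CPM and 0.407, 2.9, 1.97, 0.635 and 3.47 CPM and fell as well (-3.05).

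Genes of lipid-associated macrophages rose in 21 of 26 cases. Trem2, the lipid receptor that names this state, was at 0.934, 0.765, 1.17, 0.52 and 1.26 CPM in fl/fl and 15, 18.2, 16.5, 17.5 and 14.2 CPM in knockout mice (4.1 ± 0.18 SE). Mmp12, macrophage elastase, rose from 2.07 ± 1.01 to 45.3 ± 4.89 CPM, Cd9 from 16.3 ± 4.53 to 59.4 ± 4.82 CPM, Cd63 from 6.14 ± 1.07 to 35.4 ± 5.35 CPM and Lgals3 by 2.14. Apoe, also a major hepatocyte product, fell by 0.40 (log2). Monocyte and neutrophil genes rose in 20 of 21 tested cases (of 30 listed, 9 were too low). Cx3cr1 was at 1.87, 2.17, 1.3, 1.43 and 1.6 CPM in fl/fl and 13.1, 13.8, 18.4, 12.6 and 16.1 CPM in knockout mice, Ccr2, the receptor of recruited monocytes, rose by 2.45, Itgam by 2.11 and Lyz2 from 142 ± 52.9 to 355 ± 82.6 CPM. The neutrophil gene S100a8 rose from 1.04 ± 0.756 to 12.8 ± 10.5 CPM (3.57, and 2.97 without knockout mouse 3). The member that fell, F10, is a clotting factor made by hepatocytes (-0.42). Among lysosomal genes 16 of 41 rose and 9 fell. Ctss, of antigen-presenting cells, rose by 1.78 and Npc1, of lysosomal cholesterol export, fell by 0.81.

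**Figure D4:**
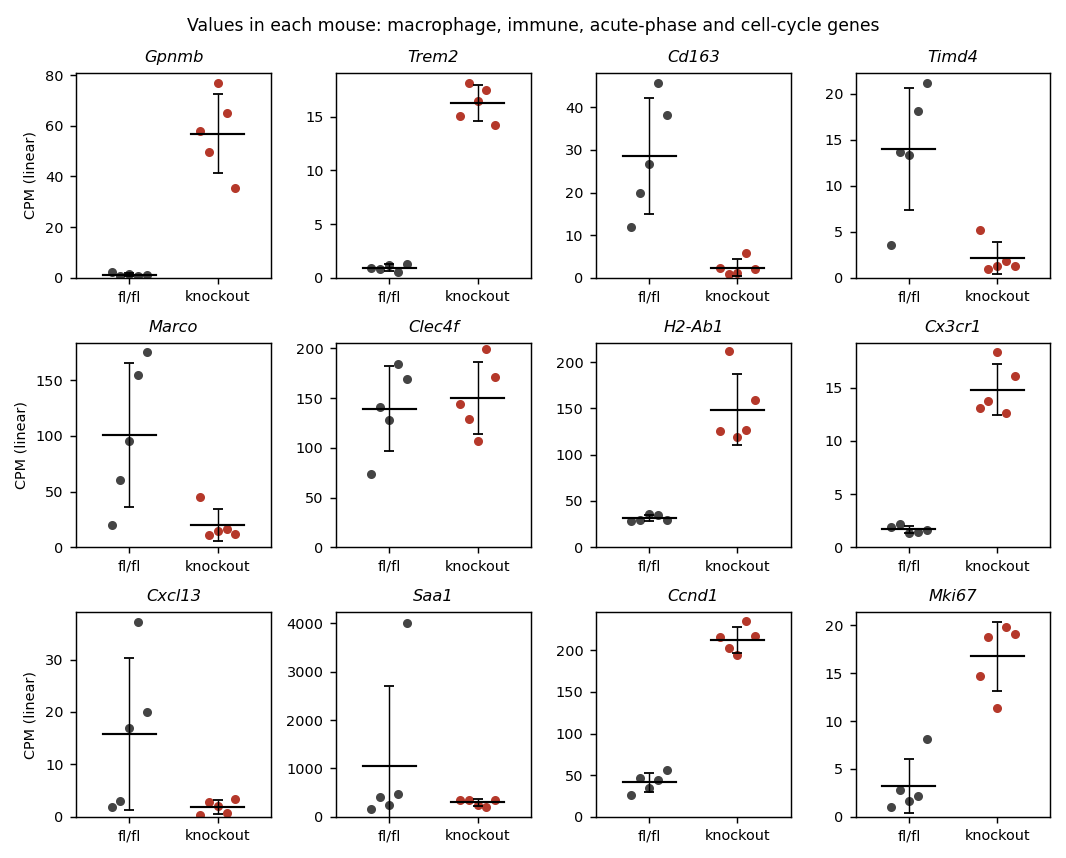
CPM (linear axis) of 12 genes in each of the 5 fl/fl (grey) and 5 knockout (red) mice, with mean and SD as bars. Gpnmb, Trem2, H2-Ab1, Cx3cr1, Ccnd1 and Mki67 were higher without overlap, Cd163 lower without overlap, Timd4, Marco and Cxcl13 lower with overlap, Clec4f did not differ past the test, and in Saa1 a single fl/fl mouse stood at 3998 CPM.

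Antigen presentation by MHC class II rose in 18 of 20 tested genes. H2-Ab1, the beta chain of I-A, was at 28.4, 29.9, 36.4, 34.7 and 29.2 CPM in fl/fl and 126, 212, 119, 127 and 159 CPM in knockout mice (2.23 ± 0.16 SE). H2-Aa rose from 42.7 ± 4.45 to 205 ± 47.6 CPM, Cd74, the invariant chain, from 106 ± 13.6 to 461 ± 104 CPM and Ciita, the class II transactivator, by 2.11. The dendritic cell gene Xcr1 rose by 1.9 (log2). In contrast the class I genes H2-K1 (1127 ± 90.4 and 1077 ± 13.8 CPM) and B2m (1619.8 ± 108 and 1556 ± 131 CPM) did not pass (-0.07 and -0.06, but 0.31 and 0.32 and past the test by total counts). Most lymphocyte genes were too low to test: 16 of 40 were tested, of which 13 rose. Cd8a rose from 0.479 ± 0.244 to 2.94 ± 1.22 CPM, Cd3g from 0.455 ± 0.35 to 2.38 ± 1.15 CPM and Il7r from 0.661 ± 0.3 to 3.82 ± 0.909 CPM, whereas Cd4, which macrophages can also carry, was at 1.95 ± 0.513 and 2.2 ± 0.571 CPM and did not pass. Of 26 tested chemokine and receptor genes 18 rose. Ccl5 rose by 2.13, Cxcl14 by 3.13, Cx3cl1, the ligand of Cx3cr1, from 0.885 ± 0.259 to 7.19 ± 1.54 CPM and Cxcl16 from 13.2 ± 2.83 to 34.4 ± 5.96 CPM. Ccl2 rose from 1.47 ± 0.988 to 3.63 ± 0.546 CPM with overlap, and the neutrophil attractant Cxcl1 (7.15 ± 2.2 and 9.3 ± 2.77 CPM) did not pass.

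Interferon-stimulated genes rose in 33 of 41 cases and fell in 0. Ly6e rose from 227 ± 44.7 to 589 ± 31.2 CPM, Oasl2 by 1.6, Ifit1 by 1.54 and Isg15 by 1.32. Among sensors and inflammasome genes 24 of 34 rose. The endosomal Toll-like receptors Tlr8 and Tlr13 rose by 1.91 (log2) and 1.95, Tlr2 by 1.52 and Tmem173, which encodes STING, by 1.59. Il1b (2.15 ± 0.795 and 2.8 ± 1.38 CPM) did not pass and the receptor Il1r1 fell from 102 ± 18.5 to 61.3 ± 7.21 CPM.

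Sinusoidal endothelial genes gave 5 higher and 4 lower among 25, with 8 lower without fl/fl mouse 1. Stab2, a hyaluronan clearance receptor, fell from 51.4 ± 9.88 to 35.3 ± 3.41 CPM with overlap between the groups, and Lyve1 (19.4 ± 11 and 17.4 ± 3.21 CPM) did not pass. In other vessels Cd34 rose from 1.93 ± 0.713 to 13.5 ± 4.83 CPM and Ly6a by 1.97, while Pecam1 (19.9 ± 5.9 and 25.6 ± 2.57 CPM) did not pass with all mice but passed as higher without fl/fl mouse 5 (0.52, adjusted p = 0.00644). Stellate cell genes other than matrix rose in 17 of 27 cases and fell in 5. Lrat, which stores retinyl esters, rose by 0.89 (log2), the PDGF receptors Pdgfra and Pdgfrb by 1.72 and 1.42, Cygb by 1.9 and Rgs5, of pericytes, by 1.74. In hepatocyte retinoid metabolism Retsat fell from 549.8 ± 123 to 151 ± 39.5 CPM and Rbp4, the plasma carrier, from 2602 ± 203 to 1599.7 ± 125 CPM, and Sphk1, which makes sphingosine-1-phosphate, rose from 0.448 ± 0.228 to 3.23 ± 0.477 CPM. Of markers of blood and neighbouring tissue, 8 of 21 were tested and 7 had no count, among them Adipoq of fat, Myh1 and Myh4 of muscle, Prss2, Cpa1 and Pnlip of pancreas and Cdx2 of gut. The globin gene Hbb-bs was at 301, 103, 284, 224 and 203 CPM in fl/fl and 346, 501, 617, 358 and 252 CPM in knockout mice, and the summed level of the list ranged from 285 to 706 and from 517 to 1323 CPM. The part of blood in the leukocyte genes was not tested.

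Growth hormone and sex-biased genes fell in 22 of 36 cases and rose in 1, against 21 and 3 without fl/fl mouse 5 and 21 and 2 without fl/fl mouse 4. Ghr, the growth hormone receptor, fell from 773 ± 55 to 417 ± 52.3 CPM, Igf1 from 729.7 ± 74.2 to 439 ± 49.6 CPM, Igfals, which stabilises IGF1 in plasma, by 1.33 and Prlr, the prolactin receptor, by 1.99. Slco1a1 was at 23.1, 10.2, 46.9, 23.2 and 15.5 CPM in knockout mice, above the fl/fl mouse 5 and below the other 4, and its log2 fold change was -3.4 with that mouse, -3.74 without it and -2.60 without fl/fl mouse 4. The female-biased Cyp2b9 fell as well (-3.03). Of zonated genes, 18 of 30 periportal and 13 of 29 pericentral ones fell, with medians of -0.70 and -0.28, the latter turning to 0.09 by total counts. Glul, glutamine synthetase of the innermost pericentral cells, was at 1489.9 ± 313 and 1386 ± 221 CPM and did not pass, and Rhbg, an ammonium carrier of the same cells, rose from 14.3 ± 3.23 to 53.4 ± 9.12 CPM. The hepatokine Fgf21 (2.56 ± 1.74 and 4.02 ± 1.39 CPM) did not pass. Of 21 clock and output genes 13 fell (5 by total counts, where the median turned from -0.36 to 0.01), the output factors Tef and Hlf among them (-0.54 and -0.74).

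The same inducible line was also sampled after 8 weeks of HFCFD and 10 days of tamoxifen (HFCFD8W+T10D, 5 mice of each genotype), with its own fl/fl controls. Diet time and tamoxifen time differ together between the experiments and cannot be told apart. In a joint fit of the 20 libraries the genotype effect was larger (more positive, log2 difference over 1) at 10 weeks for 431 of 12900 genes (3.34%) and smaller (more negative) for 57 (0.442%), the latter being 88 without HFCFD8W+T10D knockout mouse 2 and 35 with upper quartile scaling. Over the 11878 genes tested in both experiments, 2998 (25.2%) were higher and 2932 (24.7%) lower at 10 weeks, against 1219 (10.3%) and 813 (6.84%) at 10 days, by adjusted p alone. The oxidative phosphorylation list, with 40 of 40 genes lower at 10 weeks, had 0 lower and 0 higher at 10 days (medians -0.43 and -0.05). The difference passed an adjusted p under 0.05 for 6 of the 40, with none over 1. Over all 12900 genes 522 passed in the positive and 400 in the negative direction by adjusted p alone. By total counts most of the 40 did not fall at 10 weeks, as given above, and that scaling was not fitted at 10 days. Plasma proteins had medians of -0.58 and -0.07, with 43 and 8 of 57 lower and 2 and 4 higher. The difference passed an adjusted p under 0.05 for 12 of the 57, with none over 1. Interferon-stimulated genes had medians of 0.91 at 10 weeks and 1.05 at 10 days, with 32 and 34 of 40 higher. Stellate cell genes had medians of 0.86 and 0.15, with 6 of 27 past the test of the difference in the larger direction, and the cell-cycle list 2.04 and 1.04 with 2 of 49. Among biliary and epithelial genes 14 of 42 had a larger effect at 10 weeks. Over the 32 of them tested in both experiments the medians were 1.14 at 10 weeks and 0.78 at 10 days. Of these, 22 were higher and 4 lower at 10 weeks, and 17 higher and 3 lower at 10 days.

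**Figure D5:**
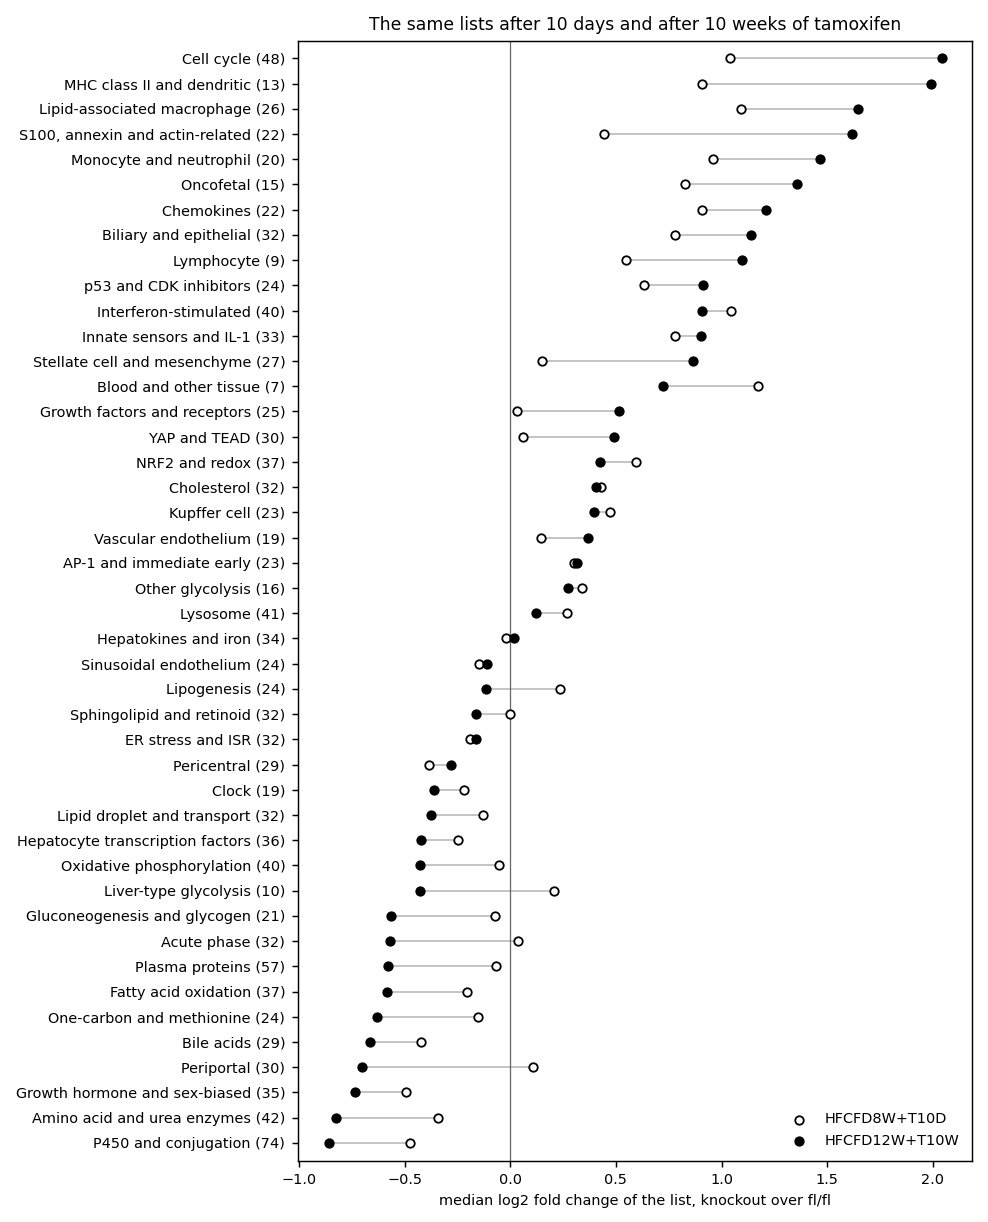
Median log2 fold change (knockout over fl/fl, x axis) of each gene list after 10 days (open circles, HFCFD8W+T10D) and 10 weeks of tamoxifen (filled circles, HFCFD12W+T10W), over the genes tested in both, whose number stands in brackets. Cell-cycle, stellate cell and plasma protein medians lie further from 0 at 10 weeks, and those of interferon-stimulated genes were 0.91 and 1.05.

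Krt7 and Krt19 were among the biliary genes whose effect differed: at 10 days their log2 fold changes were -0.19 and -0.51, against 2.9 and 2.75 at 10 weeks (differences 3.06 ± 0.53 SE, adjusted p = 0.00176, and 3.23 ± 0.52 SE, adjusted p = 0.00114). Kupffer cell genes made up 3 of the 5 most negative differences above 10 CPM. Of the 23 tested genes of that list 3 had a smaller and 1 a larger effect, with a median difference of -0.14. The list medians were 0.40 at 10 weeks and 0.47 at 10 days. Cd163 was -0.33 at 10 days and -3.58 at 10 weeks, a difference of -3.28 ± 0.54 SE (adjusted p = 0.00142; -3.87 without 10-week knockout mouse 4). Timd4 was 0.15 and -2.72 (-2.9 ± 0.61, adjusted p = 0.0073; -3.54 without 10-week knockout mouse 1). Marco was at 15.8, 10.8, 26, 18.2 and 7.56 CPM in fl/fl and 32, 216, 45.8, 28.1 and 21.2 CPM in knockout mice at 10 days, with knockout mouse 2 far above the rest (2.18, adjusted p = 0.0283), and was lower at 10 weeks (-2.35). The difference of -4.54 ± 0.89 (adjusted p = 0.00428) was -3.38 (adjusted p = 0.00436) without that mouse. Acot3, a peroxisomal acyl-CoA thioesterase, was 0.17 and -2.1 (-2.3 ± 0.28, adjusted p = 0.000234), and Abcc12 was higher at both times (4.28 and 1.6). Slc10a1 was -0.64 at 10 days and -2.61 at 10 weeks (-2.0 ± 0.34, adjusted p = 0.0017), and Abcg5 was -0.08 and -1.18 (-1.13 ± 0.33, adjusted p = 0.0395), where the test of the difference was lost in 11 of the 20 fits that left out a mouse. The most positive differences were in Serpina1e, an alpha-1-antitrypsin copy (-8.32 and -3.18), Slc34a2, a phosphate carrier (-3.1 and 0.97), S100a8 (-0.20 and 3.57), Mup2 (-8.39 and -4.69) and Slpi, a secreted protease inhibitor (-1.37 and 1.96). In group means of the joint fit, Slc34a2 was at 50.3 CPM at 10 days and 2.78 CPM at 10 weeks in fl/fl, and at 5.54 and 5.3 CPM in knockout mice. Slpi was at 14.4 and 2.95 CPM in fl/fl and 5.41 and 11.1 CPM in knockout mice. Acot3 was at 32.5 and 99.9 CPM in fl/fl and 36 and 22.5 CPM in knockout mice. For these genes the controls differed between the experiments as well. In the 10-week knockout mice S100a8 was at 4.78, 14.4, 30.2, 9.21 and 5.24 CPM and Slpi at 5.29, 8.39, 34.3, 5.93 and 5.62 CPM, where mouse 3 stood far above the others. Without that mouse the 10-week call of Slpi was lost (1.03, adjusted p = 0.0523). The test of the difference was lost in 6 of those 20 fits for S100a8 (2.33 without HFCFD8W+T10D fl/fl mouse 1), in 6 for Slpi (2.38 without 10-week knockout mouse 3) and in 3 for Mup2. It was also lost for Mup2 with all 30 libraries in 1 fit (adjusted p = 0.13) and for Abcg5 with upper quartile scaling (adjusted p = 0.0552). With the replicate number as a block it was lost for S100a8 and Slpi (adjusted p = 0.0525 and 0.106). Serpina1e had a 10-week log2 fold change of -3.77 and a difference of 4.54 without 10-week knockout mouse 3, and the 10-week call of Slc34a2 passed only without fl/fl mouse 5 among the fits that left out a mouse (1.49, adjusted p = 0.0282). In Serpina1e and Mup2 the positive sign means a lesser fitted fall at 10 weeks. Mup2 was at 0, 0.0873, 0.117, 0 and 0.103 CPM in the 10-day knockout mice, near the counting floor. Its log2 fold change of -8.39 and its difference are therefore fitted values, not bounds. The fl/fl means of Mup2 were 26.6 CPM at 10 days and 15.5 CPM at 10 weeks. Serpina1e varied widely among the fl/fl mice, at 11108, 2044, 2223, 10124 and 119 CPM, and is a near-identical copy of its neighbours.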

How the data were processed

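RNA-Seq libraries of polyA RNA from liver (5 Cebpa ΔHep,ERT2 and 5 Cebpa fl/fl mice of HFCFD12W+T10W, with the 10 of HFCFD8W+T10D for 1 comparison) were taken from the deposited gene table. Per the submitters' processing notes, the authors trimmed reads with Trimmomatic 0.36, used STAR 2.5.1, Picard 1.84 and RSEM 1.2.22 on mm10, and list DESeq2. The deposited expected counts are RSEM estimates (3.25% of values are not whole) and were rounded. The deposited TPM, scaled by the authors for transcript length, served only for shares between isoenzymes.

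The 10 libraries were fitted with edgeR 4.0.16 (R 4.3.3): TMM scaling, filterByExpr by genotype, glmQLFit and glmQLFTest, Benjamini-Hochberg adjustment over 12463 genes, and a call at an adjusted p under 0.05 with a fold over 2. For the 44 gene lists the adjusted p alone was used. The difference between experiments was an interaction contrast over 20 libraries. CPM are counts scaled to a common library size with TMM, and ± is SD unless marked SE. A gene with at most 3 counts in every library of a genotype gets a bound, or its fold change is marked as fitted. The fits were tried on simulated counts with few genes changed, as many up as down, a setting that cannot test the choice of scaling. All 55450 identifiers were in GENCODE M21. Promoters were from RefSeq (GRCm38.p6).

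Genes were named by a rule: the 10 largest changes each way without overlap and above 10 CPM outside the matrix, Sox9 and Notch genes treated apart, in each list the 3 of smallest p each way, the 2 most abundant and the key genes, the 5 largest differences each way, and Cebpa and Spp1. The rule gives 536 genes, 518 of them tested. The text prints 271 genes, a choice made with their values in view that left out genes near no change whose sign turned between settings, and some other genes are not reported here. Msln and Upk3b among them, like Ugt1a5 and Abcg8, lie outside the rule. Mbl2 is in the rule but, given without a value, is not counted among the 271. Members, lists and rule were chosen with earlier results of these data known. Totals of 8047025 to 9695171 counts per library set the precision, and bounds cover counting error only. Alternatives were no filter, upper quartile scaling, total counts, DESeq2 1.42.0, the replicate number as a block, all 30 libraries in 1 fit, other thresholds and leaving out each mouse. The difference between experiments was not fitted by total counts.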

Additional observations from a re-analysis of the deposited data

Results flagged for a closer look

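In 26 of 542 groups (4.8%; 271 genes in 2 genotypes) the highest or lowest of the 5 mice stood apart by Dixon's criterion, where chance flags about 1 in 20. Each mouse below is given with its level in CPM. Knockout mouse 3 stood apart in 6 genes. It was low in H19 (7.21), Ccng1 (72.5) and Cyp2c69 (0), and high in Mup1 (4.05), Slco1b2 (697) and Slpi (34.3). Knockout mouse 1 stood apart in 6 genes, high in Marco (45.0), Acot3 (32.9), Nqo1 (24.8), Ttr (6989.7) and Ugt1a9 (326) and low in Elf3 (3.15). Knockout mouse 2 was low in Arg1 (387) and high in Mmp12 (53.9) and Trf (26879). Knockout mouse 5 was low in F10 (275) and high in Lyve1 (23.04) and Prom1 (18.2).

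Among fl/fl mice, mouse 1 was low in Timd4 (3.60) and Soat1 (4.80), mouse 3 high in Tdo2 (2137) and without a count in Upk3b (0), and mouse 4 high in B2m (1808), Prox1 (132) and Cftr (0.13, a single count) and low in Lpl (27.4). Fl/fl mouse 5, which stood far above the others in Saa1, was not among them, because on the log2 scale its gap was under the critical share of the range.

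The genotype effect differed between HFCFD12W+T10W and HFCFD8W+T10D by the interaction test (edgeR, adjusted p under 0.05, difference over 1) in the positive direction for 431 genes and in the negative direction for 57. Differences on the log2 scale were 3.06 for Krt7 and 3.23 for Krt19, both biliary keratins, 3.75 for S100a8 and 3.30 for Slpi, 4.05 for Slc34a2, and 5.13 for Serpina1e and 3.69 for Mup2. They were -4.54 for Marco, -3.28 for Cd163 and -2.90 for Timd4, 3 of the 23 Kupffer cell genes tested, whose median difference was -0.14. They were -2.70 for Abcc12, -2.30 for Acot3, -2.0 for Slc10a1 and -1.13 for Abcg5. Of the 20 fits that each left out a mouse, the test was lost in 11 for Abcg5, 6 for S100a8, 6 for Slpi and 3 for Mup2. It was also lost for Mup2 with all 30 libraries in 1 fit and for Abcg5 with upper quartile scaling. With the replicate number as a block it was lost for S100a8 and Slpi. Marco was at -3.38 without HFCFD8W+T10D knockout mouse 2. The count of 57 was 88 without that mouse.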

How the results depend on the processing

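The 1777 higher calls became 2672 with no filter on low counts and 3411 with no minimum fold, and the 433 lower calls became 220 by total counts and 2960 with no minimum fold. Leaving out each mouse gave 1760 to 1984 higher and 423 to 468 lower genes, with 1984 higher without fl/fl mouse 5. The 57 smaller effects became 35 with upper quartile scaling and 400 with no minimum difference, and leaving out each of 20 mice gave 39 to 88, the most without HFCFD8W+T10D knockout mouse 2. The 431 larger effects ranged from 332 to 634 when each mouse was left out, the most again without that mouse. The cause of these moves was not tested, apart from the scaling, where the median over all genes moved from 0.01 to 0.38. By total counts the log2 change turned to 0.0148 for Anxa11, 0.32 for B2m, 0.27 for Glul, 0.31 for H2-K1, 0.34 for Hp, 0.23 for Hspa5, 0.22 for Lyve1, 0.0054 for S100a1 and 0.12 for Yap1, and the medians to 0.0934 for pericentral, 0.0137 for clock and 0.29 for sphingolipid and retinoid genes. Upper quartile scaling turned B2m to 0.0239, H2-K1 to 0.0154 and Hp to 0.0451. Leaving out each mouse gave -0.0744 to 0.21 for Clec4f, -0.20 to 0.12 for Hp, -0.34 to 0.17 for Lyve1 and -2.48 to 0.28 for Saa2, with the highest value of the last 3 without fl/fl mouse 5. Same-numbered mice of the genotypes correlated at -0.0987, 0.0356, -0.0044, 0.0811 and 0.195 in their deviations, and the mice were treated as unpaired. The labels do not say whether a number marks a litter or a day, and these values cannot exclude it. With the replicate number as a block there were 1793 higher and 418 lower genes, Hp turned to 0.0377, Serpina1e, Slco1a1 and Slpi no longer passed, and Cyp7a1, Fos, Jun, Pecam1 and Slc34a2 passed in addition. Of 240 printed genes past the test, 216 kept their direction and their call in every alternative. The printed genes are the steadier ones: over all genes of the naming rule, 324 of 417 past the test did so, and the direction turned in some alternative for 56 of 249 tested genes not printed and 11 of 269 printed. Ass1 and Cyp3a11, not called, passed with DESeq2 and with all 30 libraries, Scd1 and Trf with DESeq2 and Cyp7a1 with all 30, Cdkn1a lost its call with DESeq2, and Fasn, Hbb-bs, Mat2a and Pck1 lost their call with all 30. Totals of 8047025 to 9695171 counts per library limit what is said of genes under 1 CPM.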

Other observations

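Hormones secreted by the liver and genes of iron handling gave 12 lower and 2 higher genes among 34 tested (9 and 13 by total counts). Tfr2, a sensor of transferrin-bound iron, was at 444, 401, 428, 454 and 446 CPM in fl/fl and 245, 244, 258, 270.4 and 204 CPM in knockout mice, with no overlap (log2 fold change -0.83 ± 0.08 SE, adjusted p = 5.2e-06). Slc39a14, a zinc and iron importer, fell from 256 ± 19.3 to 159 ± 11.3 CPM (SD, n = 5). Inhbe, an activin subunit of the hepatocyte, fell from 58.6 ± 23.5 to 34 ± 4.73 CPM with overlap between the groups, a call lost by total counts. Fst, follistatin, which binds activins, rose from 1.73 ± 1.37 to 4.43 ± 1.71 CPM, a call lost without fl/fl mouse 1, 2 or 3 or knockout mouse 2 or 3 (log2 fold change 1.06 to 1.24, and 1.32 with all mice), and Enho from 2.24 ± 1.91 to 8.23 ± 2.05 CPM (1.88, and 2.54 without fl/fl mouse 4).

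In sphingolipid and retinoid metabolism 9 genes rose and 13 fell among 35 tested (15 and 6 by total counts). Aldh1a2, a retinaldehyde dehydrogenase of mesothelial and stromal cells, was at 0.267, 0.127, 0.13, 0 and 0.114 CPM in fl/fl and 2.13, 2.8, 3.95, 2.75 and 2.53 CPM in knockout mice, whereas Aldh1a1, the retinaldehyde dehydrogenase of hepatocytes, fell from 2307 ± 385 to 1348 ± 179 CPM (log2 fold change -0.78). The mesothelial markers Msln and Upk3b, chosen after their values were seen, were at 3.6 ± 1.844 and 9.63 ± 12.2 CPM and at 3.83 ± 2.15 and 11.9 ± 16 CPM and did not pass the test, though both passed by total counts. Their part in the rise of Aldh1a2 was not tested. Cers2, the ceramide synthase of very long chains, fell by 0.44 on the log2 scale with TMM and lost its call by total counts, while Sptlc1 and Sptlc2, subunits of the first enzyme of sphingolipid synthesis, rose by 0.32 and 0.56 on that scale.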
